A study of Mus musculus with 6 samples.

Results

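The genes described here are 40 genes of the interstitial matrix and of the fibroblasts that make it: fibrillar and other collagens, small proteoglycans, elastic fibre proteins, adhesive glycoproteins, enzymes and chaperones of collagen assembly, and fibroblast surface proteins. They were read from 6 mouse mammary tumour arrays by taking every probe set whose platform annotation gave exactly 1 gene symbol and whose symbol was in the list. This found 38 of the 40 genes, out of 12393 genes measured in all, on 66 probe sets. The other 2 were Loxl2, whose probe set is annotated to several genes, and Fbn1, for which the annotation gave no such probe set. A gene is represented below by its brightest probe set, the one with the highest mean over the 6 arrays, and 24 members had more than 1.

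Both groups were tumours of adult F1 females that had 1 PyMT parent, the polyomavirus middle T antigen transgene that causes mammary tumours. For 3 tumours (AKR F1) the mate was of inbred strain AKR/J and for 3 (DBA F1) of inbred strain DBA/2J, and the comparison asks how gene expression differs at baseline between the genotypes. The labels name the transgene only as PyMT and do not say which promoter drives it, how old the animals were, or whether the 3 samples of a cross came from separate animals, so a p-value here measures the spread between these samples. Replicate numbers follow accession order and pair nothing across the crosses. Every value is a log2 value as deposited, 1 array per tumour, so a step of 1 is a doubling, and differences are AKR F1 minus DBA F1. The number of arrays, 3 per cross, limits the precision.

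Interstitial matrix is the fibrous scaffold between epithelium, vessels and fat. Fibroblasts secrete procollagen chains that fold in the endoplasmic reticulum, are trimmed outside the cell, assemble into fibrils with small proteoglycans on their surface, and are crosslinked by lysyl oxidases. In mammary tumours this stroma surrounds the epithelial nests, and its collagen content is known to bear on stiffness and invasion.

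Array medians ran from 7.52 to 7.57, and the SD of the values from 1.76 on AKR replicate 2 to 2.02 on DBA replicate 3. Epithelial markers, the genes expected of a mammary tumour, had array means from 10.56 to 10.92 over 16 genes. Markers of other tissues differed between arrays, and where these transcripts came from was not tested. Skeletal muscle markers averaged 11.44 over 16 genes on DBA replicate 1 against 6.41 to 9.63 on the others. Adipocyte markers averaged 8.68 over 13 genes on DBA replicate 1 against 6.18 to 7.19. The mean over cartilage markers stood highest on DBA replicates 2 and 3 (8.96 and 8.42 over 16 genes, against 7.35 to 7.82). That over myoepithelial and smooth muscle markers was also highest there (9.22 and 9.15 over 14 genes, against 8.04 to 8.25). The cartilage markers did not move together: 6 had higher means in AKR F1 and 10 in DBA F1 tumours. Col9a2 and Matn3 had their lowest value of the 6 arrays on DBA replicate 3 (7.08 and 6.30). The control probe sets of Gapdh differed between the 3′ and 5′ ends of the transcript by 1.20 on DBA replicate 1, 0.75 on DBA replicate 3 and 0.05 to 0.31 on the other 4 arrays. The part of these differences between arrays in the results below was not tested except where a value is given.

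No member differed between the crosses past the threshold, while several differed widely between tumours of the same cross. By limma with Benjamini-Hochberg adjustment over all 22626 probe sets, 0 of 38 members passed an adjusted p of 0.05, where 0.0972% of all probe sets and 0.0565% of all genes at their brightest probe set did. Leaving out each array in turn also called 0 members. An adjusted p of 0.10 called 2 of 38, Col12a1 and Mfap2, beside 810 of all 22626 probe sets. With array weights 11 of 38 members passed, beside 9969 of all 22626 probe sets. The weights did not converge, however, and lay at 38.2 for AKR replicate 1 and 0.123 to 1.18 for the other arrays. At an unadjusted p under 0.05 there were 2 members higher in AKR F1 and 3 higher in DBA F1 tumours, which is 5.26% and 7.89% of the members, where 12.6% of all genes were in each direction. The 3 values of a cross lay wholly above those of the other for 2 members in each direction (5.26%), where 23.2% of all genes lay apart with AKR F1 higher and 15.2% with DBA F1 higher. Most members are bright, and among the 6196 genes brighter than the median gene the balance was reversed: 11.2% lay apart with AKR F1 higher and 23.8% with DBA F1 higher, against 6.25% of the 32 bright members in each direction. At an unadjusted p under 0.05 these shares were 8.15% and 19.4% of the bright genes, against 6.25% and 9.38% of the bright members. Single arrays moved these counts. The 3 members higher in DBA F1 at an unadjusted p under 0.05 numbered 7 with AKR replicate 1 left out (18.4%, where 10.6% of all genes were), 1 with AKR replicate 2 left out (2.63%, against 9.32%), 8 with DBA replicate 1 left out (21.1%, against 11.1%) and 0 with DBA replicate 3 left out (against 6.38%). The 2 higher in AKR F1 numbered 4 (10.5%) with either AKR replicate 2 or DBA replicate 1 left out, where 13.1% and 9.02% of all genes were. The 2 members apart with DBA F1 higher numbered 8 (21.1%) with any of AKR replicate 1, DBA replicate 1 or DBA replicate 2 left out, near the 19.5%, 20.4% and 24.1% of all genes apart in that direction at those settings. The 2 apart with AKR F1 higher numbered 9 (23.7%) with AKR replicate 2 left out, where 29.2% of all genes were. The median member difference was -0.07, with 17 members above 0 and 21 below, the median over all genes was 0.05, and that over the genes brighter than the median gene was -0.14, beside 0.0 for the 32 bright members. The sign of the member median depended on scaling, being 0.06 after quantile normalization, and on single arrays, from -0.29 without DBA replicate 2 to 0.25 without AKR replicate 2.

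**Figure D1:**
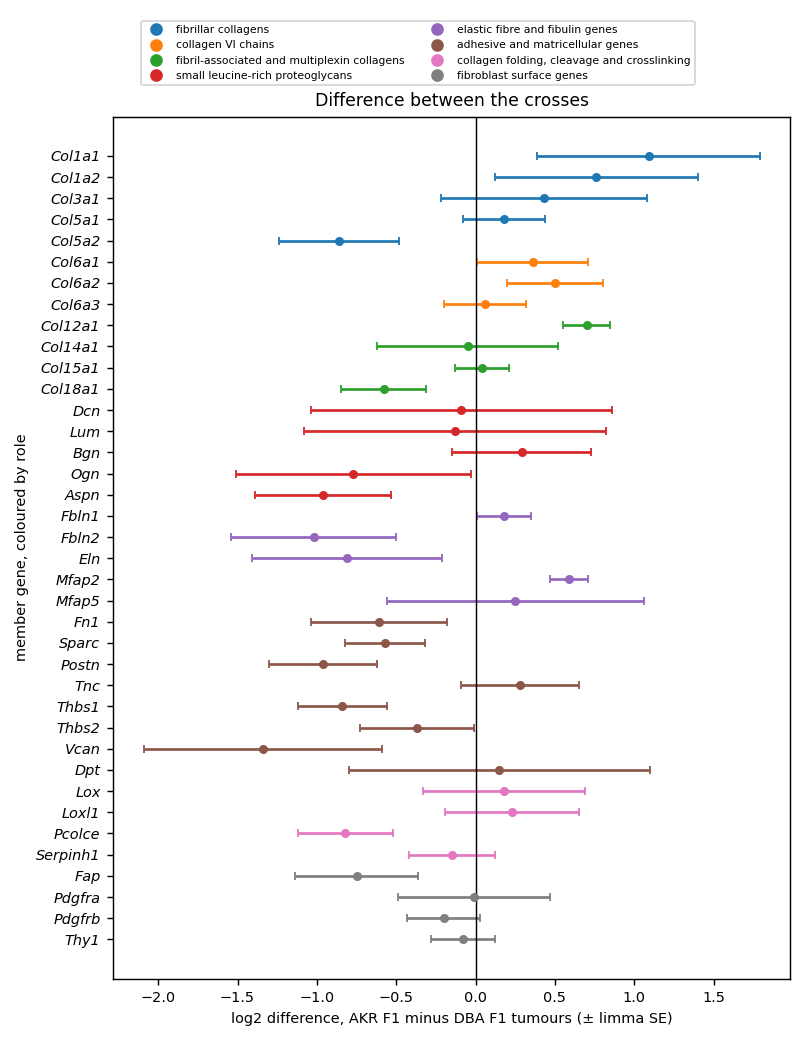
Log2 difference between AKR F1 and DBA F1 tumours (x axis) for each of the 38 members (y axis), with bars of ± 1 limma SE, coloured by role. Col12a1 (0.70) and Mfap2 (0.59) have short bars above 0, Vcan (-1.34) is the lowest value, and the bars of Dcn, Lum, Dpt and Mfap5 are the longest.

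The spread inside a cross was the main feature of these genes. The highest and lowest of the 3 arrays differed by a median over members of 1.08 in AKR F1 and 1.04 in DBA F1 tumours. For all genes brighter than the median gene (7.96), which 32 members were, the same medians were 0.39 and 0.33. The larger of the 2 ranges exceeded the difference between the crosses in 36 of 38 members (94.7%) and in 81.3% of all genes. The members where it did not were Col12a1 and Mfap2.

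**Figure D2:**
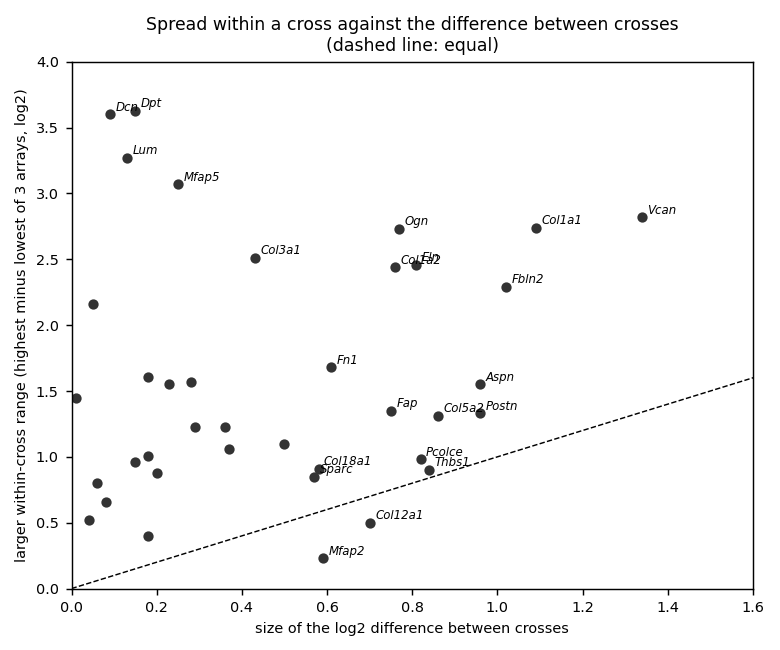
Each point is a member: the size of its log2 difference between crosses (x axis) against the larger of its within-cross ranges, highest minus lowest of 3 arrays (y axis, log2). Points above the dashed line vary more inside a cross than between the crosses. Dpt (range 3.63) and Dcn (3.60) stand highest with differences near 0, and only Col12a1 and Mfap2 lie below the line.

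Replicate 2 of each cross stood apart for many members. On DBA replicate 2, 12 of 38 members (31.6%) stood more than 1 log2 unit below both other DBA arrays, where 0.799% of all genes did. These were Col1a1, Col1a2, Col3a1, Col6a1, Col14a1, Dcn, Lum, Bgn, Ogn, Mfap5, Pdgfra and Dpt, and after quantile normalization the count was 11, without Col6a1. Dimmer probe sets of Col1a1, Col14a1, Bgn, Ogn and Pdgfra did not all pass this step, and those of Col1a2, Col3a1 and Mfap5 did. By the same rule in the other direction 2 members, Fbln2 and Eln, stood more than 1 unit above both other DBA arrays there (5.26%), where 0.823% of all genes did, and both remained after quantile normalization. In the AKR cross 12 members (31.6%) stood more than 1 unit below both other arrays on AKR replicate 2, where 1.44% of all genes did, and after quantile normalization 6 did (15.8%). The step of 1 unit was chosen after the values were seen, and these counts describe single arrays, with no test. AKR replicate 2 had the narrowest spread of all values and was the lowest AKR array for 71.5% of all genes above the median level and for 84.2% of the members. In whole tumour RNA, fewer fibroblasts and less matrix RNA per fibroblast cannot be told apart.

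**Figure D3:**
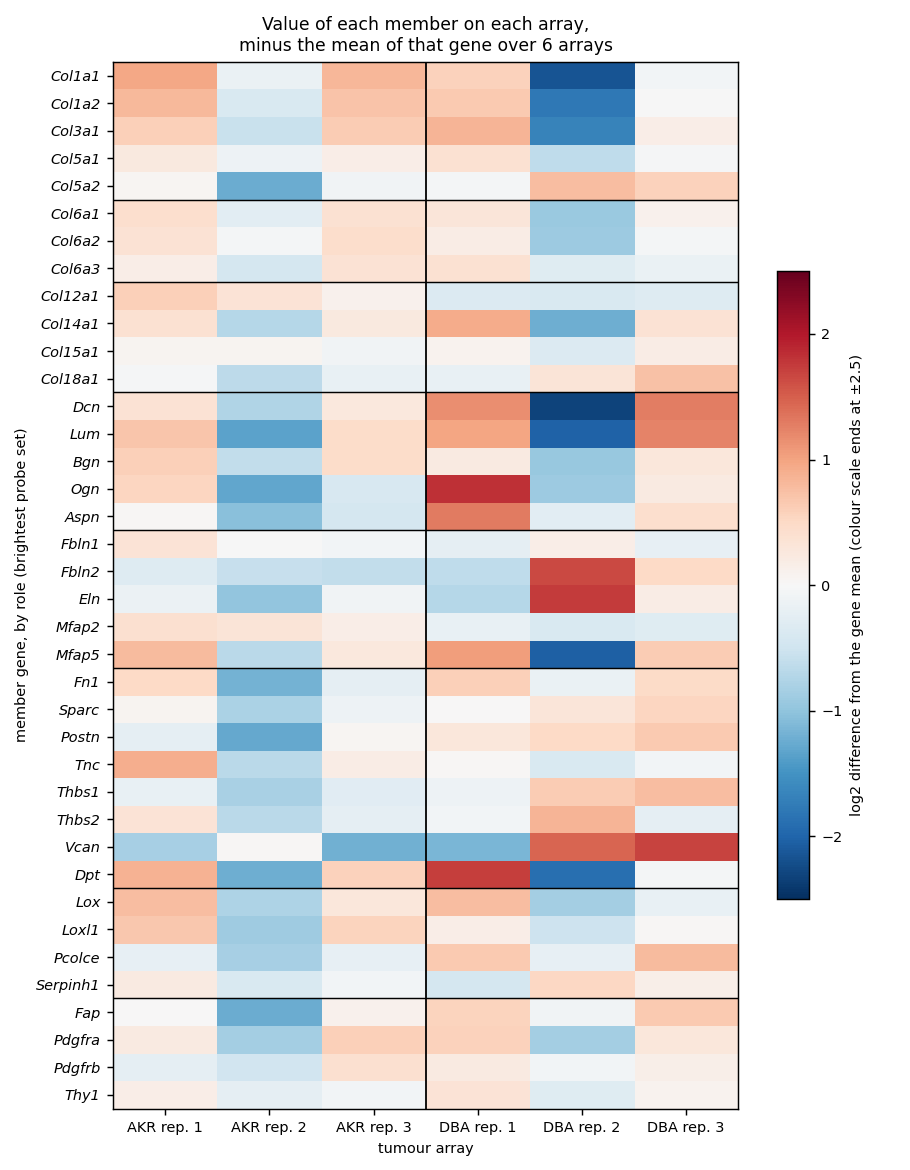
Each row is a member and each column an array; the colour is the log2 value minus that gene's mean over the 6 arrays, red above and blue below, with rows grouped by role and the crosses divided by the black vertical line. The DBA replicate 2 column is dark blue for Col1a1, Col1a2, Col3a1, Dcn, Lum, Mfap5 and Dpt, and red for Fbln2, Eln and Vcan.

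The DNA before the transcription start is shown for Col1a2 and Col3a1, which stood together low on DBA replicate 2, for Fbln2, which stood high there, and for Vcan, which was high on DBA replicates 2 and 3 alike. These are the 250 bases before the start in the reference genome of C57BL/6J mice (RefSeq, GRCm38.p6), which is not the genome of the crosses, on the strand of the gene. The table held such windows for 24 of the 40 members. Capitals mark 3 short motifs searched on both strands: CCAAT, which reads ATTGG from the opposite strand, then TATAAA, which reads TTTATA from there, and last GGGCGG, which reads CCGCCC from there. None of the marked letters overlap.
Col1a2, at chr6:4505368-4505617, plus strand: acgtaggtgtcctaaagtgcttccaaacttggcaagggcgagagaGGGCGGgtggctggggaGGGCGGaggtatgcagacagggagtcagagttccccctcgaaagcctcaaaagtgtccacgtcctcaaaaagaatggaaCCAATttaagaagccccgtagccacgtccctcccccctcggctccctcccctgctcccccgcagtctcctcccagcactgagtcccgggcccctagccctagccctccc
Col3a1, at chr1:45311288-45311537, plus strand: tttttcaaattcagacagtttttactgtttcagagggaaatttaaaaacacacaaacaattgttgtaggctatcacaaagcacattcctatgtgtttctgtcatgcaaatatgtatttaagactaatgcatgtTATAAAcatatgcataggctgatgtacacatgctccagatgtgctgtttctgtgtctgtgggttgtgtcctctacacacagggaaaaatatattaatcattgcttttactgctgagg
Fbln2, at chr6:91212514-91212763, plus strand: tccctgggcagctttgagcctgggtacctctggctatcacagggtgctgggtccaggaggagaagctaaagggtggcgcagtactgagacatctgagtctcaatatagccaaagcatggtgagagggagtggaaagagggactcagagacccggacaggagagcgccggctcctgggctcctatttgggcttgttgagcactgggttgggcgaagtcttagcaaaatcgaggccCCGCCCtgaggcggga
Vcan, at chr13:89742513-89742762, minus strand: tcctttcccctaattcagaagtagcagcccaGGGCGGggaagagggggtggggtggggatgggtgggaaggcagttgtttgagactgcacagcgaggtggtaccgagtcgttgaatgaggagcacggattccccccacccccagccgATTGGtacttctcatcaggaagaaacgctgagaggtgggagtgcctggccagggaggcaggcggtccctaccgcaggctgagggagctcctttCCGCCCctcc

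The Col1a2 window held CCAAT starting 109 bases before the start and GGGCGG starting 205 and 188 bases before it. The Col3a1 window held TATAAA starting 117 bases before the start. The Fbln2 window held CCGCCC starting 16 bases before the start. The Vcan window held ATTGG starting 103 bases before the start, GGGCGG starting 219 bases and CCGCCC starting 10 bases before it. Of all 32851 windows of this length in the table, 33.8% held the CCAAT letters, 12.4% the TATAAA letters and 32.7% the GGGCGG letters on either strand. Of the 30 windows of members, 6, 7 and 15 did (20%, 23.3% and 50%). Neither pair of genes shared a motif that the other pair lacked.

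The fibrillar collagens form the banded fibrils of connective tissue. Col1a1, the alpha-1 chain of type I collagen, read 12.38, 11.25 and 12.25 in AKR F1 and 12.00, 9.26 and 11.35 in DBA F1 tumours. The crosses overlapped, and the lowest value, on DBA replicate 2, was 6.67-fold below DBA replicate 1 and 4.24-fold below DBA replicate 3. The difference between the crosses was 1.09 (SE 0.70, limma adjusted p = 0.316), a 2.13-fold higher mean in AKR F1 tumours that did not pass. Without DBA replicate 2 it was 0.29. Col1a2, the partner chain of the same fibril, read 12.71, 11.52 and 12.61 against 12.55, 10.11 and 11.88 and followed the same order of arrays within each cross. Its difference was 0.76 (SE 0.64, limma adjusted p = 0.423), and 0.06 without DBA replicate 2. Col3a1, the type III chain of the finer reticular fibrils, read 12.84, 11.69 and 12.88 against 13.10, 10.59 and 12.41. It differed by 0.43 (limma adjusted p = 0.659), and its second probe set by -0.34, so the direction between the crosses was not settled. Without DBA replicate 2 the difference of Col3a1 was -0.29.

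The type V chains sit in the core of type I fibrils and set their diameter. Col5a1 read 9.16, 8.78 and 9.08 against 9.30, 8.29 and 8.89, again lowest on DBA replicate 2. Col5a2 was the exception among the fibrillar collagens: it read 10.98, 9.68 and 10.83 in AKR F1 and 10.88, 11.69 and 11.50 in DBA F1 tumours. At this probe set it was highest on the array where Col1a1, Col1a2 and Col3a1 were lowest. A second Col5a2 probe set was highest elsewhere, on AKR replicate 3 (9.16), and read 8.70, 8.95 and 9.14 in DBA F1 tumours, with no dip on DBA replicate 2 below DBA replicate 1. The differences between the crosses were -0.86 (SE 0.38, limma adjusted p = 0.203) and -0.31 at the second probe set. Col3a1 and Col5a2 are neighbouring genes on chromosome 1 in the RefSeq gene table of GRCm38.p6, and on DBA replicate 2 Col3a1 stood at -2.51 from DBA replicate 1 while the probe sets of Col5a2 stood at 0.81 and 0.25 from it.

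Type VI collagen makes beaded filaments close to cells, and its 3 chains had small differences of one sign. Col6a1 read 10.09, 9.41 and 10.06 against 9.98, 8.74 and 9.78. Col6a2, whose gene lies on the same chromosome, 10, read 10.94, 10.52 and 11.02 against 10.77, 9.67 and 10.53. Both were lowest on DBA replicate 2, and their crosses overlapped. Col6a3, the long chain, read 10.36, 9.76 and 10.55 against 10.57, 9.88 and 10.03. The differences were 0.36, 0.50 and 0.06 (limma adjusted p = 0.497, 0.289 and 0.883), and those of Col6a1 and Col6a3 were below 0 without DBA replicate 2 (-0.02 and -0.08).

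The collagens that decorate fibrils or basement membrane zones did not move as a block. Col12a1, a fibril-associated collagen, read 9.57, 9.30 and 9.07 in AKR F1 against 8.63, 8.58 and 8.65 in DBA F1 tumours, without overlap. The means were 9.32 ± 0.25 and 8.62 ± 0.04 (SD, n = 3 each), a 1.62-fold difference (0.70, SE 0.15, limma adjusted p = 0.0934) that missed the threshold. Col14a1, the related type XIV collagen, read 8.65, 7.56 and 8.51 against 9.20, 7.04 and 8.63 and shared the low value on DBA replicate 2 that Col12a1 lacked. Its difference was -0.05 (limma adjusted p = 0.958). Col15a1 (0.04) kept within 8.21 to 8.73 on all 6 arrays. Col18a1, whose fragment endostatin inhibits vessel growth, read 8.86, 8.24 and 8.71 against 8.71, 9.22 and 9.62, a difference of -0.58 (limma adjusted p = 0.213).

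Small leucine-rich proteoglycans bind collagen fibrils and control their spacing, and decorin and lumican had some of the widest swings of all members. Decorin (Dcn) read 10.17, 9.06 and 10.09 in AKR F1 and 10.99, 7.50 and 11.10 in DBA F1 tumours. DBA replicate 2 was the lowest of all arrays and DBA replicate 3 the highest, a span of 3.60 inside 1 cross, so the means of 9.77 ± 0.62 and 9.86 ± 2.05 (SD, n = 3 each) differed by only -0.09 (SE 0.95, limma adjusted p = 0.954). Lumican (Lum) read 10.15, 8.11 and 9.91 against 10.44, 7.43 and 10.70 and differed by -0.13 (SE 0.95). After quantile normalization these differences were 0.11 for Dcn and 0.03 for Lum. Biglycan (Bgn), a close relative of decorin, read 11.46, 10.24 and 11.31 against 11.08, 9.92 and 11.14, with a range of 1.23 in the DBA cross. Its 3 probe sets gave differences from 0.17 to 0.38.

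Osteoglycin (Ogn) and asporin (Aspn), of the same protein family and both on chromosome 13, were dim, and dim values can understate a change. Ogn read 7.27, 5.44 and 6.32 against 8.56, 5.83 and 6.96, and Aspn read 6.22, 5.15 and 5.75 against 7.48, 5.93 and 6.60. For both, DBA replicate 1 was the highest array and AKR replicate 2 the lowest. DBA replicate 1 is the array on which the fat and muscle markers were highest. Their differences were -0.77 (SE 0.74) and -0.96 (SE 0.43, limma adjusted p = 0.206), with crosses that overlapped.

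The genes of elastic fibres and fibulins split into opposite patterns. Mfap2, a microfibril glycoprotein that binds fibrillin, read 8.95, 8.87 and 8.72 in AKR F1 and 8.36, 8.17 and 8.25 in DBA F1 tumours, without overlap. Its means of 8.85 ± 0.12 and 8.26 ± 0.10 (SD, n = 3 each) differed 1.50-fold (0.59, SE 0.12, limma adjusted p = 0.0917), the smallest adjusted p of any member. Mfap5, the related microfibril protein, behaved unlike it: it read 9.79, 8.33 and 9.26 against 10.04, 6.97 and 9.63, and DBA replicate 2 was 8.40-fold below DBA replicate 1 and 6.31-fold below DBA replicate 3. Its mean difference was 0.25 (SE 0.81).

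Elastin (Eln), the core protein of elastic fibres, went the other way on DBA replicate 2, with 10.34, 9.50 and 10.40 against 9.77, 12.23 and 10.68. The value on DBA replicate 2 was 5.49-fold above DBA replicate 1 and 2.92-fold above DBA replicate 3. The difference between the crosses was -0.81 (SE 0.60, limma adjusted p = 0.372), while a dimmer Eln probe set differed by 0.60. That dimmer probe set was also highest on DBA replicate 2 (9.67, against 7.95 and 8.05 on the other DBA arrays). Fbln2, a fibulin of vessel walls and elastic tissue, read 9.38, 9.12 and 9.09 against 9.07, 11.36 and 10.21, which left DBA replicate 1 at the AKR level. Its difference was -1.02 (SE 0.52, limma adjusted p = 0.24). Fbln1 kept within 7.60 to 8.17 and differed by 0.18.

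**Figure D4:**
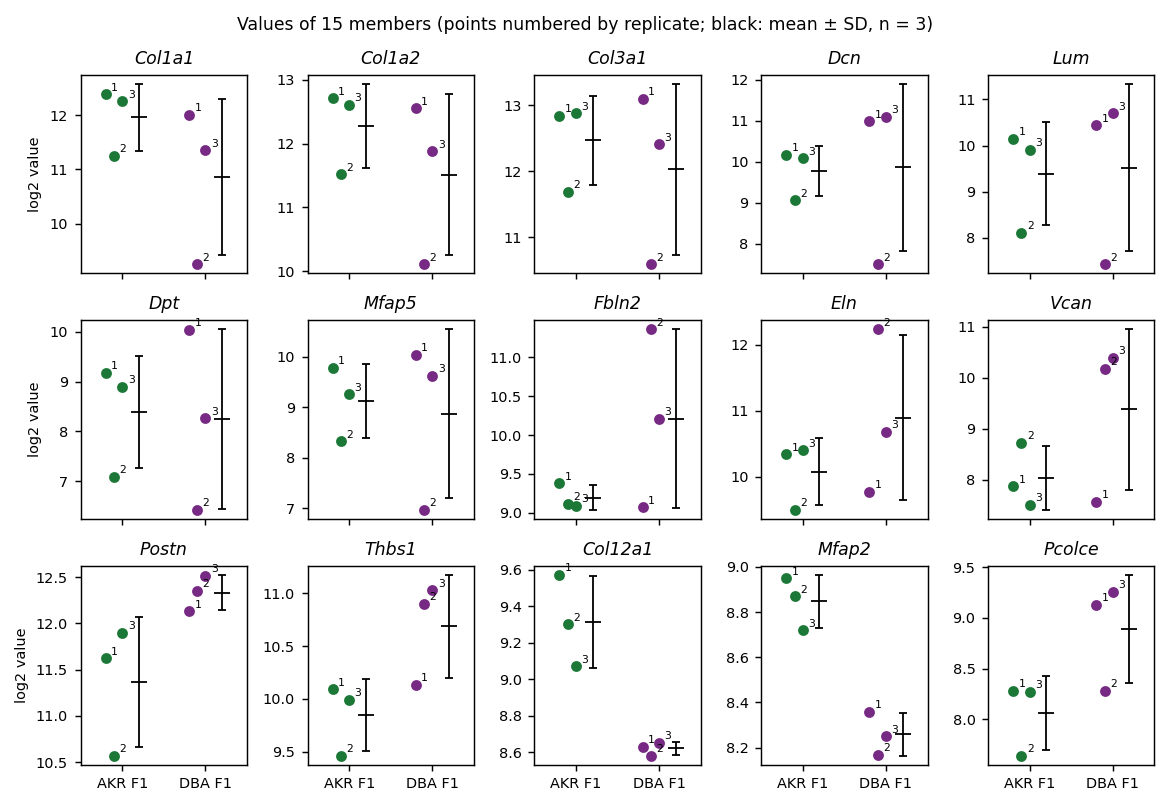
Log2 values (y axis) of 15 members in AKR F1 (green) and DBA F1 (purple) tumours, each point an array numbered by replicate, with the mean ± SD of the 3 arrays in black; y axes differ between genes and do not start at 0. Point 2 of the DBA cross is the lowest of all 6 for Col1a1, Col1a2, Col3a1, Dcn, Lum, Dpt and Mfap5 and the highest for Fbln2 and Eln, and the crosses are apart for Postn, Thbs1, Col12a1 and Mfap2.

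Adhesive and matricellular proteins link cells to the fibrils, and 6 of these 8 members had lower means in AKR F1 tumours. Their median difference was -0.59. All genes brighter than the median gene leaned the same way, with a median of -0.14. Periostin (Postn), a matricellular protein of activated fibroblasts, read 11.62, 10.57 and 11.90 in AKR F1 and 12.13, 12.35 and 12.51 in DBA F1 tumours. The crosses did not overlap, and the means of 11.36 ± 0.70 and 12.33 ± 0.19 (SD, n = 3 each) differed by -0.96 (SE 0.34, limma adjusted p = 0.155). Thrombospondin 1 (Thbs1), which activates latent TGF-beta and restrains vessel growth, read 10.09, 9.46 and 9.99 against 10.13, 10.90 and 11.03. The crosses were apart by a narrow gap at DBA replicate 1, with a difference of -0.84 (SE 0.28, limma adjusted p = 0.145). A second Thbs1 probe set differed by -0.77, with crosses that overlapped. With single arrays left out Thbs1 differed by -1.12 to -0.65 (limma adjusted p = 0.0803 to 0.432). Without AKR replicate 2 and DBA replicate 1 together, it differed by -0.93 (limma adjusted p = 0.033). That setting was chosen after seeing the data and removes the lowest value of each cross. In DBA F1 that is the value nearest the AKR F1 values, so the result is no support for a difference.

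Versican (Vcan), a large chondroitin sulphate proteoglycan of provisional matrix, had the largest difference by size, -1.34 (SE 0.75, limma adjusted p = 0.271). It read 7.87, 8.73 and 7.51 in AKR F1 and 7.57, 10.17 and 10.39 in DBA F1 tumours. DBA replicates 2 and 3 were high, and DBA replicate 1 lay among the AKR arrays. Its 3 probe sets were alike, with differences of -1.42, -1.34 and -1.20. With single arrays left out the difference ran from -2.24 without DBA replicate 1 (limma adjusted p = 0.0515) to -0.94 without DBA replicate 2 (0.46) and -0.83 without DBA replicate 3 (0.591). Leaving out AKR replicate 2 and DBA replicate 1 together, chosen after seeing the data, removes the highest AKR and the lowest DBA value of Vcan. The difference of -2.59 and limma adjusted p of 0.0067 that this gave are therefore no support for a difference. DBA replicates 2 and 3 are also the arrays with the highest means of cartilage markers and of myoepithelial and smooth muscle markers. The part of those cells in the values of Vcan, Fbln2, Eln and Col5a2 was not tested.

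Sparc, which binds collagen and calcium, read 12.41, 11.56 and 12.23 against 12.36, 12.65 and 12.89. It differed by -0.57 (limma adjusted p = 0.204), and a second Sparc probe set by -0.82 with crosses apart (limma adjusted p = 0.143). Fibronectin (Fn1), the adhesive protein on which collagen is first laid down, read 11.46, 9.78 and 10.75 against 11.56, 10.80 and 11.44 and differed by -0.61 (limma adjusted p = 0.353). At the brightest probe set AKR replicate 2 was the lowest array for Fn1, Sparc, Postn, Thbs1 and Thbs2 alike. That array was the lowest of the 6 for 53.6% of all genes above the median level and for 42.1% of the members. Dimmer probe sets of Fn1 and Thbs1 were lowest elsewhere, on DBA replicate 1 and AKR replicate 3. Thbs2 differed by -0.37. Without AKR replicate 2 the differences were -0.57 for Postn, -0.65 for Thbs1 and -0.31 for Sparc. They were then -0.16 for Fn1, -0.12 for Thbs2 and -1.69 for Vcan.

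Tenascin C (Tnc), a glycoprotein of remodelled stroma, read 9.36, 7.79 and 8.64 against 8.48, 8.07 and 8.39, a difference of 0.28. Dermatopontin (Dpt), which binds decorin and speeds fibril formation, had the widest span of any member: 9.18, 7.09 and 8.89 against 10.04, 6.42 and 8.26. DBA replicate 2 lay 12.4-fold below DBA replicate 1, the array with the highest fat and muscle markers, and 3.59-fold below DBA replicate 3. The means differed by 0.15 (SE 0.95, limma adjusted p = 0.922).

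Of the 4 proteins that fold, trim and crosslink collagen, Pcolce, Lox and Loxl1 were lowest of the DBA cross on DBA replicate 2. Serpinh1 was highest there. DBA replicate 2 was the lowest of its cross for 45.9% of all genes above the median level and the highest for 31.4%. The falls were smaller than that of Col1a1 (-2.74 and -2.09 from DBA replicates 1 and 3): -0.85 and -0.98 for Pcolce, -1.61 and -0.65 for Lox, -0.68 and -0.55 for Loxl1. Serpinh1 (Hsp47), the collagen chaperone of the endoplasmic reticulum, read 10.82, 10.21 and 10.52 against 10.15, 11.11 and 10.74. It was highest on the array where its client chains Col1a1, Col1a2 and Col3a1 were lowest, and a second Serpinh1 probe set was highest there too (11.48). Its difference between the crosses was -0.15 and became 0.10 after quantile normalization. Pcolce, the enhancer of procollagen C-proteinase, read 8.28, 7.64 and 8.27 against 9.13, 8.28 and 9.26, with a difference of -0.82 (SE 0.30, limma adjusted p = 0.164) at an unadjusted p of 0.0304. A second Pcolce probe set differed by -0.18 (limma adjusted p = 0.454) and the mean of both by -0.50 (limma adjusted p = 0.199), neither with an unadjusted p under 0.05. Its crosses overlapped at DBA replicate 2. Lysyl oxidase (Lox) read 9.50, 7.97 and 9.01 against 9.50, 7.89 and 8.54, with differences of 0.18, -0.65 and 0.19 at its 3 probe sets. Its relative Loxl1 read 9.42, 7.87 and 9.30 against 8.91, 8.23 and 8.77 and differed by 0.23.

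All 4 fibroblast surface genes had differences below 0 at their brightest probe set, from -0.75 for Fap to -0.01 for Pdgfra, and none passed. The shared direction depended on AKR replicate 2. Without that array the differences were -0.32 for Fap, 0.41 for Pdgfra, -0.01 for Pdgfrb and 0.01 for Thy1. Fap, a protease of activated fibroblasts, read 7.60, 6.35 and 7.70 against 8.15, 7.51 and 8.25, a difference of -0.75 (SE 0.39, limma adjusted p = 0.244). Pdgfra, the growth factor receptor that marks fibroblasts, read 7.44, 6.37 and 7.82 against 7.80, 6.36 and 7.50, low on replicate 2 of both crosses, and differed by -0.01. A second Pdgfra probe set read 6.97, 7.42 and 6.98 against 6.98, 6.73 and 6.85 and differed by 0.27. It was highest on AKR replicate 2, and DBA replicate 2 lay only 0.25 and 0.12 below the other DBA arrays. Thy1, a surface glycoprotein, kept within 7.79 to 8.45 and differed by -0.08. Pdgfrb, the receptor shared with pericytes, differed by -0.20 at its brightest probe set, whereas a dimmer probe set read 7.45, 7.43 and 7.48 against 6.95, 7.10 and 6.98 without overlap. That dimmer Pdgfrb probe set differed by 0.44 (SE 0.11, limma adjusted p = 0.105). Probe sets of opposite sign were found for 7 members: Col3a1, Col14a1, Eln, Fbln1, Lox, Pdgfra and Pdgfrb.

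Over the roles, the array means of the small proteoglycans were 9.05, 7.60 and 8.68 in AKR F1 and 9.71, 7.32 and 9.30 in DBA F1 tumours, and those of the fibrillar collagens 11.62, 10.58 and 11.53 against 11.57, 9.99 and 11.21. Both were lowest on DBA replicate 2. The adhesive and matricellular genes averaged 10.13, 9.13 and 9.80 against 10.12, 10.12 and 10.43, lowest on AKR replicate 2 and level across DBA replicates 1 and 2. Fibroblast surface genes were lower on replicate 2 of each cross, at 6.86 and 7.23, than on the other 4 arrays (7.61 to 7.99). On DBA replicate 2 the epithelial marker mean was 10.56, the lowest of the 6 arrays by a small step, while macrophage markers (8.28 over 13 genes) and endothelial markers (7.61 over 14 genes) were also the lowest of the DBA cross. Pericyte markers (7.97 over 9 genes) were the highest there.

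**Figure D5:**
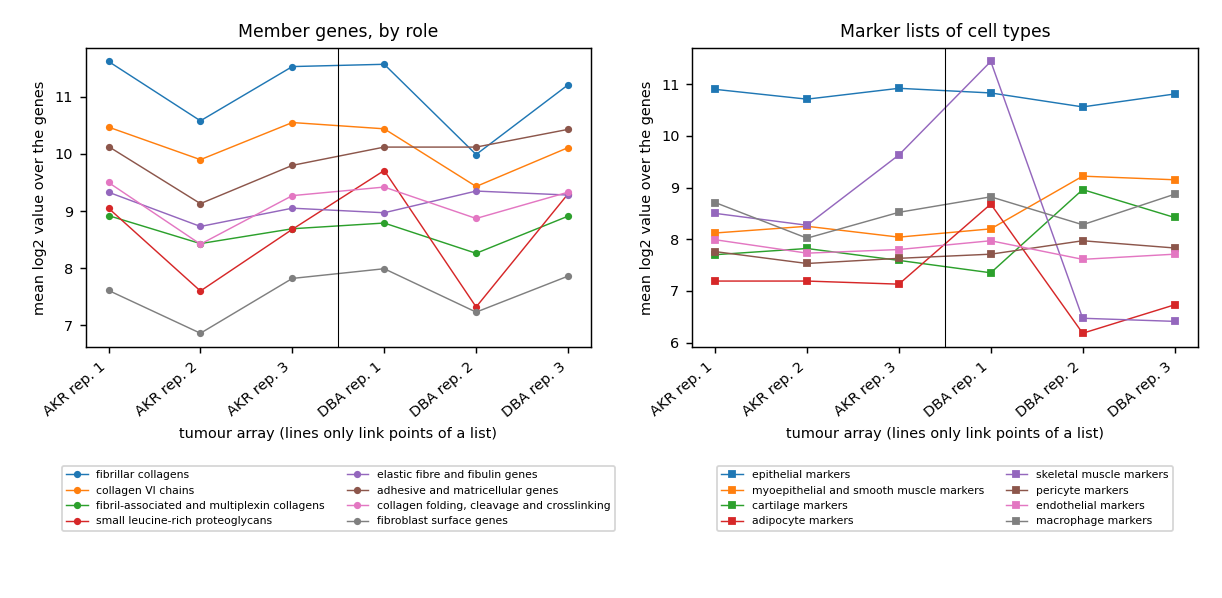
Mean log2 value (y axis) over the genes of each role of the members (left) and of each marker list (right) on the 6 arrays (x axis); lines only link points of a list. Small proteoglycans and fibrillar collagens dip on DBA replicate 2 (7.32 and 9.99), and skeletal muscle markers peak on DBA replicate 1 (11.44). The means of cartilage markers and of myoepithelial and smooth muscle markers are highest on DBA replicates 2 and 3.

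Related genes outside the list also gave no call. Of 22 measured genes of the collagen processing machinery, 0 passed an adjusted p of 0.05 by limma, with 1 higher in AKR F1 (4.55%) and 2 higher in DBA F1 tumours (9.09%) at an unadjusted p under 0.05, where 12.6% of all genes were in each direction, and the median difference was -0.28. The hydroxylase subunit P4ha1 read 7.68, 7.29 and 7.51 against 7.68, 10.11 and 8.79, highest on DBA replicate 2 as Serpinh1 was. Sec23a, a coat protein of the vesicles that export procollagen, differed by -0.91 (limma adjusted p = 0.107). Of 16 other collagens 0 passed, 3 were higher in AKR F1 (18.8%, against 12.6% of all genes) and 0 in DBA F1 tumours at an unadjusted p under 0.05, and the median was 0.16. These included Col7a1, the anchoring fibril collagen (0.67), and the cartilage collagen Col9a2 (0.82).

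Of 34 other interstitial matrix proteins 0 passed, with 3 higher in AKR F1 (8.82%) and 7 higher in DBA F1 tumours (20.6%) at an unadjusted p under 0.05, against 12.6% of all genes each way (median -0.04). Fbln5, a fibulin needed for elastic fibre assembly, read 8.23, 7.24 and 8.14 against 8.55, 10.40 and 9.99 and differed by -1.77 (SE 0.50, limma adjusted p = 0.121), with crosses apart and its high values on the arrays where Vcan and Fbln2 were high. Mfap3 differed by -0.54. Of 41 other fibroblast genes 0 passed, with 3 higher in AKR F1 (7.32%) and 6 higher in DBA F1 tumours (14.6%) at an unadjusted p under 0.05 (median 0.13), against the same 12.6% of all genes. The chemokine Cxcl12 read 8.77, 7.62 and 8.49 against 9.56, 9.64 and 9.44, and gelsolin (Gsn) read 10.01, 9.38 and 9.66 against 10.99, 10.35 and 11.22. Both had crosses apart, with differences of -1.25 and -1.17 (limma adjusted p = 0.0992 and 0.0961), and unlike Dcn and Lum neither gene stood more than 1 unit below both other DBA arrays on DBA replicate 2.

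The pattern of Col1a1 over the 6 arrays was most like that of 5 genes outside the list among 6164 brighter than the median gene. Their Pearson correlations over the 6 arrays, given as a description of genes chosen for them, were 0.991 for Ap1m2, 0.988 for Gm16136, 0.986 for Triap1, 0.985 for Tnk1 and 0.984 for Fig4. These genes spanned far less: Ap1m2, the widest, read 10.74, 10.36 and 10.64 against 10.67, 9.89 and 10.39, and Fig4 read 8.72, 8.62 and 8.66 against 8.68, 8.36 and 8.61. The points share their arrays, so anything that sets an array apart enters every such value.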

How the data were processed

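Total RNA of 6 snap-frozen mammary tumours was hybridised to 1 Affymetrix array each, per the labels' protocols. The deposited table holds log2 values; that scale was read from the values. Per the submitters' processing notes the tools were MAS5 and RMA, with no word on which one gave these values or on detection calls, so low values may lie at background. The 64 control probe sets were left out of the fit. The crosses were tested by eBayes after lmFit in limma 3.58.1 (R 4.3.3), two-sided, with Benjamini-Hochberg adjustment over 22626 probe sets. Symbols came from the platform annotation, and all 38 member identifiers were in the RefSeq table of GRCm38.p6. On simulated arrays with 200 of 22626 probe sets changed, the fit recovered 70% of changes of 1 log2 unit and 82% of 2, with 16 false calls. The simulated spread was drawn from all probe sets. Members spread more inside a cross, with median ranges of 1.08 (AKR F1) and 1.04 (DBA F1) against 0.39 and 0.28 for all genes. Those recovered shares therefore do not describe the members. Figures used matplotlib 3.10.9.

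The members, the related gene lists and the marker lists were chosen with earlier results of these data known. The named genes were all members and the 5 genes most like Col1a1. Also named were the 2 genes with the smallest p of each related list and of the cartilage markers. Alternatives were quantile normalization, median centring, a brightness filter, a trended prior, array weights, averaging a gene's probe sets, an adjusted p of 0.10 and leaving out arrays.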

Additional observations from a re-analysis of the deposited data

How the results depend on the processing

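No member passed an adjusted p of 0.05 by limma after quantile normalization, median centring, the brightness filter (which kept 34 members, without Pdgfra, Pdgfrb, Ogn and Aspn), the trended prior or averaging of a gene's probe sets, or with any single array left out. Of 38 members 17 kept their sign under every setting that gave them a value, 16 of them with a value under all. The probe sets called, 22 as deposited, were 36 after quantile normalization, 102 with the brightness filter, 810 at an adjusted p of 0.10 (with 2 members), 9969 with array weights (with 11 members) and 1 to 263 with an array left out. Members at an unadjusted p under 0.05 were 11 higher in AKR F1 and 8 higher in DBA F1 with array weights (28.9% and 21.1%, against 32.2% and 21.2% of all genes). With an array left out they were 2 to 4 higher in AKR F1 (5.26% to 10.5%, against 4.61% to 15.2% of all genes). Those higher in DBA F1 were then 0 to 8 (0% to 21.1%, against 6.38% to 13.1%). Members apart with DBA F1 higher numbered 1 after quantile normalization (2.63%, against 11.3% of all genes). With an array left out they numbered 2 to 8 (5.26% to 21.1%, against 16.6% to 24.1%). Members apart with AKR F1 higher then numbered 2 to 9 (5.26% to 23.7%, against 24.6% to 31.3%). The member median was 0.06 after quantile normalization and -0.29 to 0.25 with an array left out. Leaving out AKR replicate 2 and DBA replicate 1 together, chosen after seeing the data, gave 657 probe sets and 2 members called (Vcan and Thbs1), 10 and 7 members at an unadjusted p under 0.05 (26.3% and 18.4%, against 13.3% and 11.4% of all genes), 14 and 8 members apart (36.8% and 21.1%, against 39.1% and 22.4%; each AKR F1 higher and then DBA F1 higher) and a member median of 0.45. The cause was not tested.

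Signs turned after quantile normalization for Dcn (0.11), Lum (0.03) and Serpinh1 (0.10), and with the mean of probe sets for Col14a1 (0.03), Lox (-0.09), Pdgfra (0.13) and Pdgfrb (0.12). With array weights they turned for Col14a1 (0.19), Fn1 (0.10), Lum (0.21), Thbs2 (0.29), Pdgfra (0.10), Thy1 (0.09), Ogn (0.08) and Serpinh1 (0.16). Without AKR replicate 2 and DBA replicate 1 together they turned for Col14a1 (0.75), Dcn (0.83), Lum (0.97), Pdgfra (0.70), Pdgfrb (0.05), Thy1 (0.16) and Ogn (0.40). With single arrays left out the differences ran from -0.29 to 0.96 for Col3a1, -0.09 to 0.42 for Col5a1, -0.02 to 0.60 for Col6a1, -0.10 to 0.30 for Col6a3, -0.68 to 0.41 for Col14a1, -0.12 to 0.14 for Col15a1, -1.27 to 0.53 for Dcn, -1.18 to 0.51 for Lum, -0.11 to 0.67 for Bgn, -0.10 to 0.69 for Tnc, -0.19 to 0.61 for Lox, -0.05 to 0.72 for Loxl1, -0.71 to 0.83 for Mfap5, -0.44 to 0.41 for Pdgfra, -0.26 to 0.07 for Thy1, -0.41 to 0.07 for Serpinh1 and -0.76 to 1.05 for Dpt. No paired analysis was possible because the labels link no tumour of 1 cross to a tumour of the other. Without detection calls, values such as those of Ogn and Aspn cannot be set against background.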
